A study of Mus musculus with 16 samples.

Results

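The TIMP family of metalloproteinase inhibitors was followed in injured and intact intervertebral discs of mice with a mutated Adam8 gene and of wild-type mice. The members were the 4 tissue inhibitors of metalloproteinases, Timp1, Timp2, Timp3 and Timp4, and Reck, a membrane-anchored inhibitor of the same enzymes. They were picked out of the table by gene name and are 5 of the 49315 genes in the deposited table. All 5 passed the filter on low values and were tested among 24188 genes. Bulk RNA sequencing was done on 16 mice, and the discs of each mouse were 4 tail discs pooled before RNA extraction, so each library stands for 1 animal. The 4 groups were wild type with intact discs (3 mice), wild type with injured discs (4 mice), Adam8EQ with intact discs (4 mice) and Adam8EQ with injured discs (5 mice). The series title names DBA, an inbred strain, as the comparison to the mutant, and what the EQ allele alters is not stated in the labels. Age, the means of injury and the time after it are not given in the sources used here. Library names begin with D in all wild-type mice and with A8 or M in mutants, so these names cannot be told apart from genotype. The A8 names are intact mutants 1 and 2 and injured mutants 1 and 2. The M names are intact mutants 3 and 4 and injured mutants 3 to 5.

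Matrix metalloproteinases (MMPs), ADAMs and ADAMTS enzymes are zinc-dependent proteases that cut collagens, aggrecan and cell-surface proteins, and disc matrix is built largely from those collagens and aggrecan. TIMPs are small secreted proteins that bind the active site of such an enzyme one to one. TIMP1 is induced by cytokines and growth factors in many cells. TIMP2 is expressed broadly and, at low amounts, takes part in the activation of pro-MMP2 by the membrane protease MMP14. TIMP3 stays bound to matrix and is the family member known to inhibit the aggrecanases ADAMTS4 and ADAMTS5 and the TNF-releasing enzyme ADAM17. TIMP4 has a narrower tissue range, and RECK is tethered to the cell surface by a lipid anchor.

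Levels are given in TPM (transcripts in a fixed total), which scale read numbers by gene length and library total and so can be compared between genes. Changes are differences of mean log2(TPM + 1), with the standard error (SE) of the limma fit, and a change was called at an adjusted p under 0.05. That scale understates changes of low values. The libraries held 10195466 to 24828938 reads as implied by the TPM values. The summed levels of notochordal, chondrocyte and annulus markers were 553 TPM or more in every library. Single markers were low: Shh was at 0 in intact wild-type discs and at most 0.485 TPM elsewhere, and group means of Matn3, a cartilage matrix gene, were 1.20 to 2.52 TPM. In bulk tissue, fewer cells of a type and less RNA per cell cannot be told apart. The summed level of 6 macrophage markers was 126 to 188 TPM in the 7 intact libraries, 206 to 3362 TPM in injured wild-type and 656 to 6977 TPM in injured mutant libraries, and 5 of the 6 rose in mutants. The summed level of 6 neutrophil markers was 1.57 to 5.34 TPM in intact, 3.08 to 178 TPM in injured wild-type and 12.8 to 919.6 TPM in injured mutant libraries. Ly6g and Mpo were at 0 in all intact libraries and Mpo in injured wild-type libraries. Of the notochordal markers 3 of the 5 tested fell in injured mutants, of the annulus markers 4 of 6 and of the chondrocyte markers 1 of 6. With injury in mutants 13.1% of all tested genes were called higher and 17.7% lower. The part of these cell types in the changes below was not tested. The main axis of variation over all tested genes, the first principal component, held 40.6% of the variance. Intact libraries lay at -66.9 to -40.2 on it and injured mutants at 39.6 to 97.8. Injured wild-type mice 1 and 2 lay at -42.6 and -23.2, and mice 3 and 4 at 84.9 and 41.8. Adam8 itself was 0.956 to 2.97 TPM in intact discs, 3.52, 5.59, 66.3 and 54.9 TPM in injured wild-type mice 1 to 4 and 16.2 to 264 TPM in injured mutants, and its level does not check the genotype labels.

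In intact discs the family was dominated by Timp2. Its level was 1401, 1419 and 1192 TPM in the 3 wild-type mice and 1684, 1600, 1466 and 1300.1 TPM in the 4 mutants. Timp3 came next at 259 to 482 TPM over the 7 intact libraries, followed by Reck at 100.02 to 141 TPM. Timp4, at 27.99 to 53.0 TPM, and Timp1, at 21.4 to 41.9 TPM, were lowest. Timp2, Timp3 and Reck kept this order in all 7 libraries with no overlap between neighbours, whereas the ranges of Timp4 and Timp1 overlapped, and Timp1 was the higher in 2 of the 7 libraries.

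With injury the 5 members moved in different directions. In mutants 4 of 5 members were called, Timp1 higher and Timp2, Timp4 and Reck lower, against 30.8% of all tested genes called in either direction, 13.1% higher and 17.7% lower. Of those calls 42.6% were higher, and 52.1% with median-of-ratios scaling, under which the same number of members, 4, was called. Unadjusted p-values under 0.05 were held by 4 members, against 42.0% of genes. Among wild-type mice 1 of 5 was called, Timp1, against 0.116% of tested genes. There voom called 0 members, and 2 had an unadjusted p under 0.05, against 17.2% of genes. Groups that did not overlap were seen for Timp1 (higher) in both genotypes, for Timp2 (lower) in both, and for Timp4 and Reck (lower) in mutants. Among all tested genes such separation was found in 9.22% (higher) and 6.34% (lower) for wild-type injury, and in 12.0% and 15.3% for mutant injury. All comparisons were fitted with 1 common estimate of the spread.

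**Figure D1:**
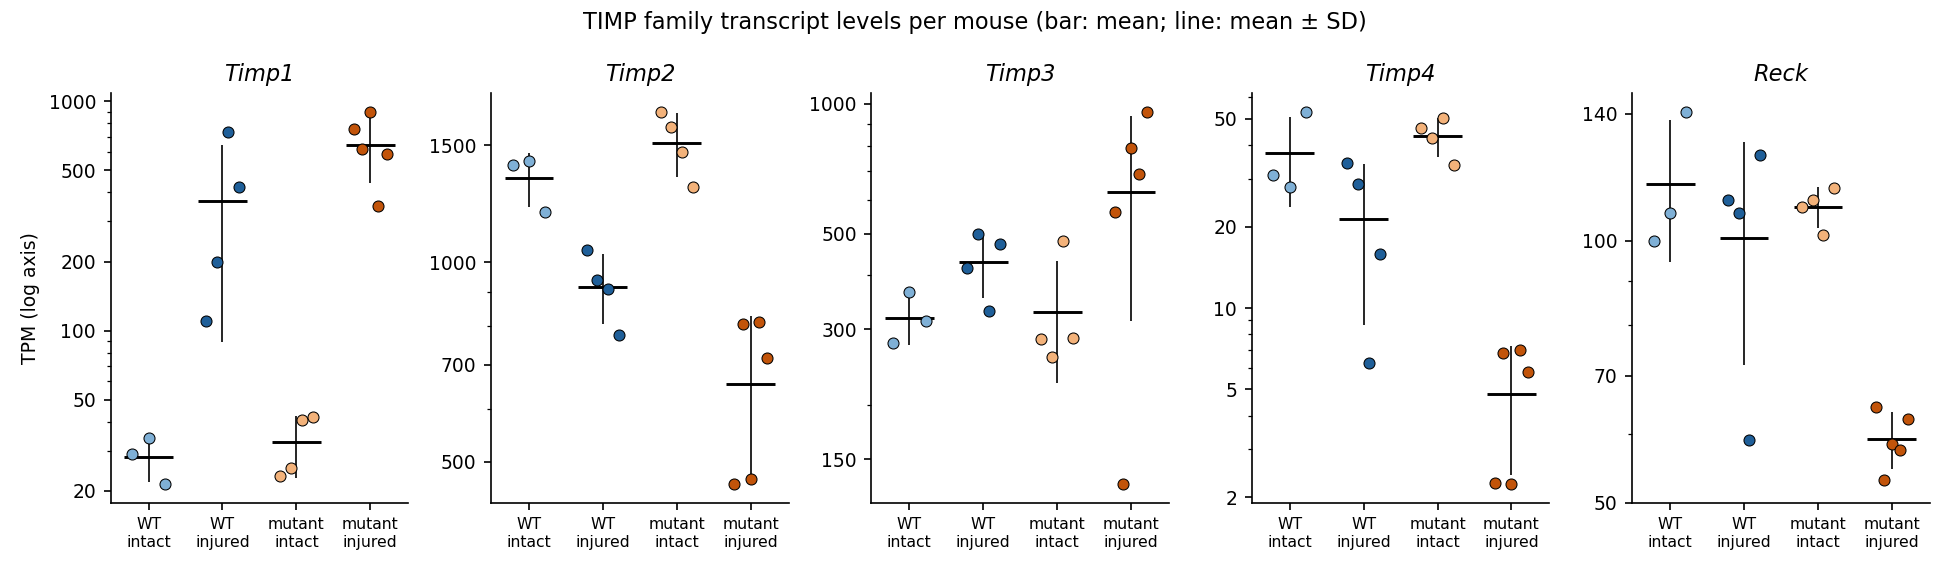
TPM (log axes, a separate range for each gene) of the 5 members in each mouse, by group, with wild type (WT) in blue and mutants in orange. Horizontal bars are means and vertical lines are mean ± SD. Timp1 is 21.4 to 41.9 TPM in intact and 110.3 to 896 TPM in injured discs, while Timp4 and Reck are lowest in injured mutants and in injured wild-type mouse 3.

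Timp1 (ENSMUSG00000001131) lies on the plus strand of GRCm38 chromosome X, 20870166 to 20874735, with 6 exons totalling 888 bases when transcripts are merged. It sits inside an intron of Syn1, which is transcribed from the opposite strand and encodes the synaptic vesicle protein synapsin I. In intact discs Timp1 was 29.1, 34.0 and 21.4 TPM in wild-type mice and 23.2, 25.1, 40.6 and 41.9 TPM in mutants, resting on 49 to 122 implied reads each. In injured wild-type mice 1 to 4 it was 110.3, 199.7, 733 and 423 TPM, and in injured mutants 1 to 5 it was 758, 622, 896, 349.8 and 587 TPM. Every injured library was above every intact library, and injured wild-type mice 1 and 2 were the lowest of the 9 injured.

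The mean of Timp1 went from 28.1 ± 6.34 (SD, n = 3) to 366 ± 277 TPM (SD, n = 4) in the wild type, a ratio of means of 13.02. In mutants it went from 32.7 ± 9.89 (SD, n = 4) to 643 ± 204 TPM (SD, n = 5), a ratio of 19.6. On the log2 scale Timp1 rose with injury by 3.33 ± 0.49 (SE) in wild-type mice, at a limma adjusted p of 0.0248. Among mutants it rose by 4.24 ± 0.43 (SE), at a limma adjusted p of 0.000127. The mutant change ranked 51 from the top among all tested genes and the wild-type change ranked 33. The wild-type call was lost, at nearly the same size of change, when intact wild-type mouse 1, 2 or 3 was left out (limma adjusted p 0.0896, 0.0801 and 0.118). It was also lost without injured wild-type mouse 4 (limma adjusted p 0.0821) or injured mutant mouse 5 (limma adjusted p 0.0504), whereas without injured wild-type mouse 1 the limma adjusted p was 0.00248. With only the groups compared in the fit the limma adjusted p was 0.187, and with voom it was 0.139. The mutant call held in all 28 alternatives.

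Because strand use in the counting is not given in the sources used here, the neighbours were measured too. Syn1 shares 0 exon bases with Timp1. It was 2.08 to 2.76 TPM in intact discs, 2.04, 2.92, 13.5 and 8.30 TPM in injured wild-type mice 1 to 4 and 6.04 to 21.6 TPM in injured mutants. It rose by 1.84 ± 0.44 in mutants (SE, limma adjusted p 0.00674). Whether reads of one locus were counted for the other was not tested.

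The sequence before the start of Timp1 is shown because it was the member that rose, with that of Timp4 beside it as the member that fell most on the log2 scale. All 5 members were matched in RefSeq's promoter table (GRCm38.p6, 250 bases before to 50 after the start). Printed are the 250 bases before each start, and the 30 bases at positions 18 to 47 after the start of Timp1, each 5′ to 3′ on the gene's strand. Capitals mark matches to the searched motifs on either strand: ETS letters CAGGAAG, Sp1 letters GGGCGG and the AP-1 variant TGAGTAA.
Timp1 before the start, chrX:20869916-20870165, plus strand: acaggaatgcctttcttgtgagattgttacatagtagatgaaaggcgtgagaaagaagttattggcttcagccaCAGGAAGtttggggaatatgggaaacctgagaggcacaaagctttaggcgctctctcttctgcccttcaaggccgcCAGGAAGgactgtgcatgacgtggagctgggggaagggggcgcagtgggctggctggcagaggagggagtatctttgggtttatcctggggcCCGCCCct
Timp1 after the start, chrX:20870183-20870212, plus strand: gtgggtggaTGAGTAAtgcgtcCAGGAAGc
Timp4 before the start, chr6:115252206-115252455, minus strand: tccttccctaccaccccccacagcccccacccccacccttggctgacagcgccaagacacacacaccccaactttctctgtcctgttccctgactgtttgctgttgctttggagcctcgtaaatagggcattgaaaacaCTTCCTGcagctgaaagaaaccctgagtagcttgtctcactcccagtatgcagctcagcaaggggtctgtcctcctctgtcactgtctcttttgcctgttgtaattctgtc

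The Timp1 window held 3 ETS matches, of which the last lies 40 to 46 bases after the start, and the AP-1 variant lies at 27 to 33. The AP-1 variant was in the window of Timp1 alone among the members and in 2.68% of the 32851 promoters, and ETS letters were in Timp1, Timp3 and Timp4 and in 13.3% of promoters. The searched letters and the stretch printed after the start were picked by hand, so these matches are descriptions and not a test. Sp1 letters were in the windows of Timp1, Timp2, Timp3 and Reck, against 35.7% of promoters. The letters TGANTCA (AP-1), TTCNNNGAA (STAT), TGTGGT (RUNX) and GGGANTTCC (NF-kappaB) were in none of the 5 windows, and in 7.81%, 8.30%, 16.8% and 1.68% of promoters. None of these motifs overlapped another in the members. In base composition the windows fell apart: GC content was 67.0% to 69.3% with 23 to 25 CpG pairs in Timp2, Timp3 and Reck, and 53.3% and 55.0% with 2 and 8 CpG pairs in Timp4 and Timp1, against a median of 52.7% and 7 over all promoters.

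Timp2 (ENSMUSG00000017466, chromosome 11, 118301069 to 118355740, minus strand, 3896 exon bases) went the other way. Against the intact values above, it was 1043, 941, 911 and 776 TPM in injured wild-type mice 1 to 4 and 462, 808, 471, 812 and 716 TPM in injured mutants 1 to 5. In both genotypes every injured mouse was below every intact one. Timp2 fell by 1.25 ± 0.19 in mutants (SE, limma adjusted p 0.000695), from 1513 ± 168 (SD, n = 4) to 654 ± 175 TPM (SD, n = 5). The wild-type difference was -0.55 ± 0.21 (SE, limma adjusted p 0.228), from 1337 ± 126 (SD, n = 3) to 918 ± 110 TPM (SD, n = 4), which did not pass. In TPM the mean of Timp2 dropped by 859 in mutants while that of Timp1 gained 609.8. Cep295nl, a gene of the same strand within the Timp2 locus that shares 0 of its exon bases, changed by -0.99 ± 0.17 in mutants (SE, limma adjusted p 0.00148).

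Timp3 (ENSMUSG00000020044, chromosome 10, 86300372 to 86349506, plus strand, 8144 exon bases) was the most variable member among injured mutants. It was 279, 366 and 313 TPM in intact wild-type mice and 285, 259, 482 and 287 TPM in intact mutants. After injury it was 416, 499, 331 and 473 TPM in the wild type and 560.3, 131, 789, 689 and 957 TPM in mutants 1 to 5. Injured mutant mouse 2 had the lowest Timp3 of all 16 libraries, while the other 4 injured mutants were above every other library. That same mouse had the highest Adam8 (264 TPM), and the highest summed MMP level, of all libraries.

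No injury change of Timp3 was called. Wild-type mice gave 0.42 ± 0.49 (SE), at a limma adjusted p of 0.681. Mutants gave 0.71 ± 0.43 (SE), at a limma adjusted p of 0.231, with a 95% confidence interval of -0.21 to 1.63. Without injured mutant mouse 2 the change was 1.21 and passed the test (limma adjusted p 0.00178). With all mice kept and sample weights in the fit it was 1.06 and also passed (limma adjusted p 0.0213). By library name, the mutants named A8, which include that mouse, gave -0.0028 (limma adjusted p 1) and those named M gave 1.11 (limma adjusted p 0.0427). Timp3 shares 1733 exon bases, 21.3% of its own, with Syn3 on the opposite strand, and without strand the reads of those bases cannot be told apart. Syn3 was listed at 2.203 to 5.72 TPM in all libraries.

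Timp4 (ENSMUSG00000030317, chromosome 6, 115241892 to 115252205, minus strand, 5894 exon bases) was the member with the largest fall on the log2 scale. It was 31.0, 27.99 and 53.0 TPM in intact wild-type mice and 46.1, 42.5, 50.4 and 33.7 TPM in intact mutants. In injured wild-type mice 1 to 4 it was 34.4, 28.8, 6.29 and 15.9 TPM, and in injured mutants 1 to 5 it was 2.25, 6.84, 2.23, 7.02 and 5.80 TPM. Injured wild-type mice 1 and 2 were within the intact range, and mouse 3 was within the range of the injured mutants. The main axis over all tested genes also parted mice 1 and 2 from mouse 3, so this split is not particular to Timp4.

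The fall in mutants was 3.02 on the log2 scale (-3.02 ± 0.42, SE, limma adjusted p 0.000482), from 43.2 ± 7.07 (SD, n = 4) to 4.83 ± 2.40 TPM (SD, n = 5), and the injured level rested on 43 to 139 implied reads. Only 25 of the 24188 tested genes had a lower mutant injury change. Wild-type mice gave -0.96 ± 0.48 (SE, limma adjusted p 0.318), which was not called. Syn2, which encodes synapsin II, holds Timp4 on the opposite strand and shares 90 exon bases with it, changed by -1.06 ± 0.19 in mutants (SE, limma adjusted p 0.00182), at 0.580 to 0.879 TPM in injured mutants and 1.74 to 3.45 TPM in intact discs. In mutants Timp1 and Timp4 each moved in the same direction as the synapsin gene that holds them. Syn3, which holds Timp3, had a mean of 4.24 TPM in intact and 4.55 TPM in injured mutants. Mean Timp3 was 328 and 625 TPM in the same groups. The 6 adipocyte markers, a cell type known to express Timp4, summed to 1.18 to 22.6 TPM in intact and 1.94 to 35.1 TPM in injured libraries, and 0 of the 3 tested were called by limma for injury in either genotype. The 6 skeletal muscle markers summed to 162 to 661 TPM in intact and 65.5 to 187 TPM in injured wild-type libraries. In mutants they summed to 101 to 125 TPM intact and 20.7 to 515 TPM injured. Limma called 0 of the 5 tested for injury in either genotype. The part of either tissue in Timp4 levels was not tested.

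Reck (ENSMUSG00000028476, chromosome 4, 43875530 to 43944806, plus strand, 4779 exon bases) showed the tightest injured mutant values. It was 100.02, 108 and 141 TPM in intact wild-type mice and 109, 112, 101 and 115 TPM in intact mutants. In injured mutants 1 to 5 it was 64.5, 53.1, 58.5, 57.5 and 62.4 TPM. In injured wild-type mice 1, 2 and 4 it stayed at 111, 108 and 126 TPM, inside the intact range, and mouse 3 alone was at 59.1 TPM. Reck fell by 0.88 ± 0.17 in mutants (SE, limma adjusted p 0.00252), and its wild-type change was -0.24 ± 0.20 (SE, limma adjusted p 0.536). Within the mutants named A8 the change was -0.91 (limma adjusted p 0.0758) and within those named M it was -0.85 (limma adjusted p 0.0994), so the size held and the call did not with fewer mice.

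**Figure D2:**
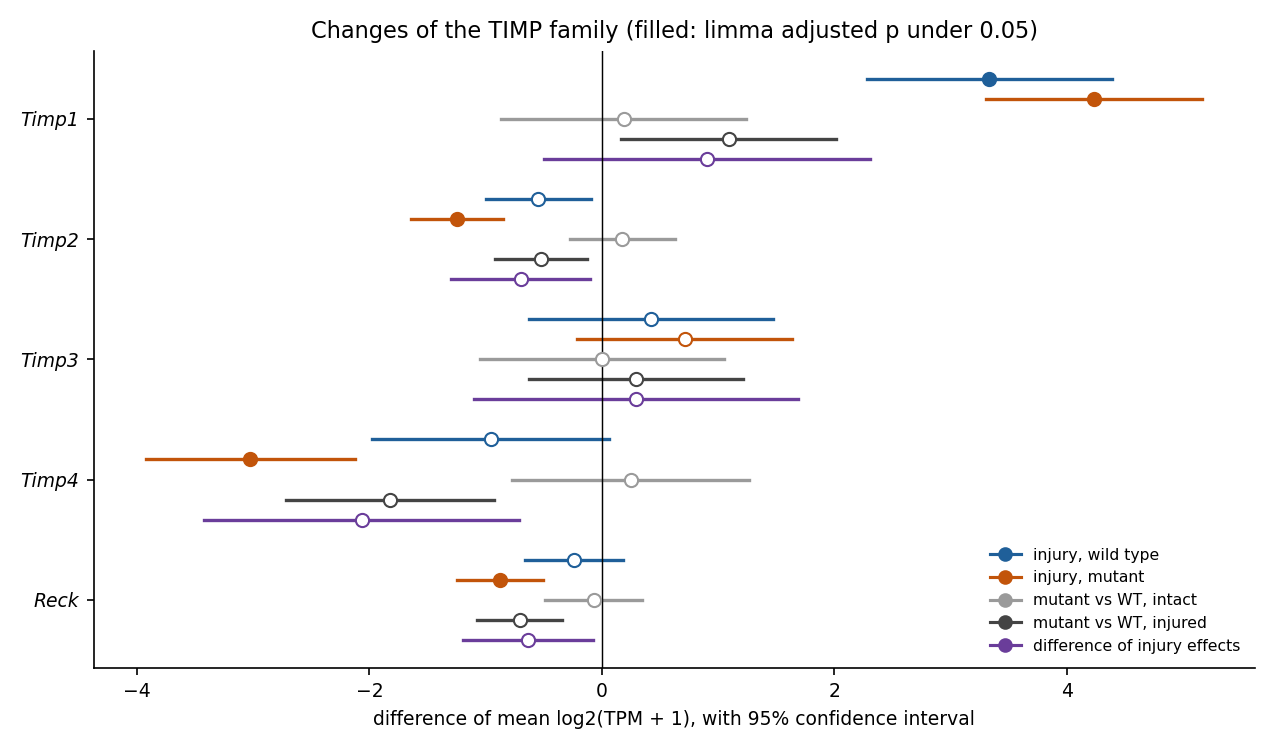
Difference of mean log2(TPM + 1) for each member (points) with its 95% confidence interval (lines) in the 5 comparisons, and filled points where the limma adjusted p is under 0.05. The filled points are Timp1 for injury in both genotypes and Timp2, Timp4 and Reck for injury in mutants.

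Whether the Adam8EQ allele changed the family was asked next. In intact discs no difference of a member between genotypes was called: limma called 0 of 5 (0.0165% of all genes were called), 0 had an unadjusted p under 0.05 (3.78% of all genes) and voom called 0. Groups without overlap were held by 0 members, against 2.77% (higher) and 3.41% (lower) of genes. The differences ran from -0.07 for Reck to 0.25 for Timp4. The 95% confidence intervals were widest for Timp1 (-0.87 to 1.24), Timp3 (-1.047 to 1.052) and Timp4 (-0.77 to 1.27). Intervals of this width do not show equal levels. The sign of the Timp3 difference, 0.0023, turned with quantile normalization (-0.011).

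In injured discs limma again called 0 of 5 members between genotypes, against 0.918% of all genes, although 4 had an unadjusted p under 0.05, against 20.3% of genes. Voom on the implied reads called 2, Timp4 and Reck, when 558 genes were called in all. Timp4 was -1.82 ± 0.42 in mutants relative to wild type (SE, limma adjusted p 0.0537), Reck -0.71 ± 0.17 (SE, limma adjusted p 0.0627), Timp2 -0.52 ± 0.19 (SE, limma adjusted p 0.141) and Timp1 1.09 ± 0.43 (SE, limma adjusted p 0.179). Without injured wild-type mouse 3, Timp4 (-2.28, limma adjusted p 0.00549), Reck (-0.94, limma adjusted p 0.00139) and Timp1 (1.54, limma adjusted p 0.0278) all passed. Leaving out that mouse raised the calls over all genes from 222 to 2253. Timp4 also passed without injured mutant mouse 2 (limma adjusted p 0.0345) or 4 (limma adjusted p 0.0406), when 675 and 597 genes were called. Over all mice left out in turn the limma adjusted p of Timp4 ranged from 0.00549 to 0.196. The injured genotypes overlapped in all 5 members, while 0.905% (higher) and 3.86% (lower) of genes had no overlap.

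An interaction term asked whether mutants and wild-type mice responded differently to injury. Limma called 0 of 5 members and 0.00% of all genes, 3 members had an unadjusted p under 0.05 (8.18% of genes), and voom called 0 members. The difference was -2.07 ± 0.64 for Timp4 (SE, limma adjusted p 0.488), -0.70 ± 0.28 for Timp2 (SE, limma adjusted p 0.549), -0.64 ± 0.26 for Reck (SE, limma adjusted p 0.559) and 0.90 ± 0.66 for Timp1 (SE, limma adjusted p 0.745). The 95% confidence interval for Timp4 was -3.42 to -0.71, which leaves out 0 before adjustment over all genes. No member passed after that adjustment, which does not show equal responses.

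Group means of the summed level of Timp1 to Timp4 were within 1 SD of each other within a genotype, while its makeup differed. Higher means of Timp1 and Timp3 stood against lower means of Timp2 and Timp4 in both genotypes. In injured mutants mean Timp1 was 609.8 TPM higher and mean Timp3 297.1 TPM higher, against -858.6 TPM for Timp2 and -38.4 TPM for Timp4. In the wild type the differences were 338.3 TPM for Timp1, 110.3 TPM for Timp3, -419.8 TPM for Timp2 and -15.96 TPM for Timp4. The sum was 1722 ± 134 TPM in intact (SD, n = 3) and 1735 ± 168 TPM in injured wild-type discs (SD, n = 4). In mutants it was 1917 ± 178 TPM intact (SD, n = 4) and 1927 ± 284 TPM injured (SD, n = 5). Timp1 made up 1.14% to 2.52% of that sum in the 7 intact libraries, 6.88%, 12.0%, 37.0% and 25.1% in injured wild-type mice 1 to 4, and 18.8% to 42.5% in injured mutants. Timp2 made up 71.9% to 83.0% in intact libraries, 46.0% to 65.0% in injured wild-type and 21.8% to 51.5% in injured mutant libraries. Timp1 exceeded Timp2 in injured mutants 1 and 3 alone, by ratios of 1.64 and 1.90, and the ratio in intact libraries was 0.0138 to 0.0322. Sums and shares over the members are given as descriptions, with no test.

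**Figure D3:**
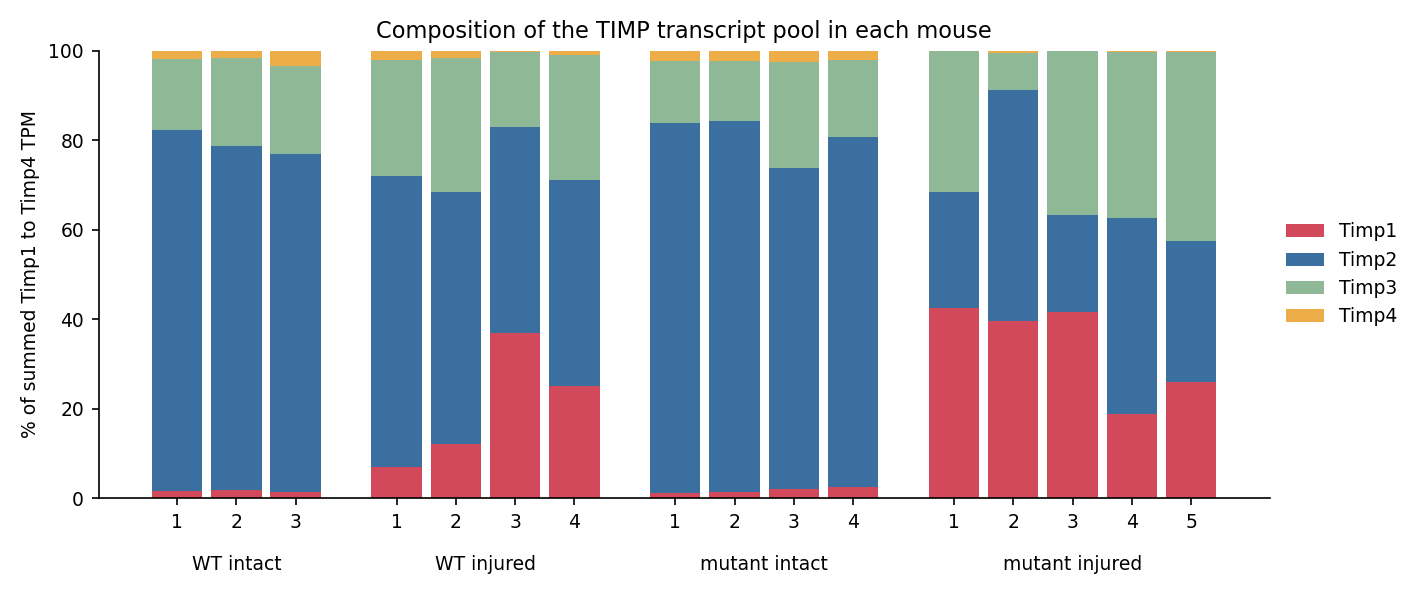
Share of each TIMP gene (colours) in the summed TPM of Timp1 to Timp4, in percent, for each of the 16 mice (1 bar per mouse, numbered within its group). Timp2 fills 71.9% to 83.0% of every intact bar, and Timp1 widens from at most 2.52% in intact to 18.8% to 42.5% in injured mutant bars.

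The enzymes that TIMPs inhibit were listed by family. Of 23 listed MMP genes 19 were tested, of which 6 were called with injury in mutants, near the 30.8% of all genes called. All 6 rose and 0 fell, where 13.1% of all genes were higher and 17.7% lower. The median MMP change was 0.76, against -0.08 over all genes. Mmp3 (stromelysin) rose by 5.99 ± 1.13 (SE, limma adjusted p 0.00202), Mmp13 (a collagenase) by 4.55 ± 1.22 (SE, limma adjusted p 0.0125), Mmp12 (macrophage elastase) by 4.64 ± 0.92 (SE, limma adjusted p 0.00269) and Mmp19 by 2.49 ± 0.59 (SE, limma adjusted p 0.00658). With only the mutants named M, 0 MMP genes were called for mutant injury, when 725 genes were called in all, against 7438. For wild-type injury limma called 0 of 19 and voom 0, with a median change of 0.87. An unadjusted p under 0.05 was held by 5, against 17.2% of all genes. Without injured wild-type mouse 1, 1 MMP gene was called for wild-type injury, when 452 genes were called in all.

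Set against the inhibitors, the summed TPM of all 23 MMP genes was 0.113 to 0.174 times the TIMP sum in the 7 intact libraries. In injured wild-type mice 1 to 4 the ratio was 0.164, 0.279, 5.01 and 4.69. In injured mutants 1 to 5 it was 4.21, 10.7, 4.202, 1.10 and 0.856. Injured wild-type mouse 1 lay within the intact range of this ratio although its Timp1 was above all intact mice. Mmp3 and Mmp13 together made up 84.6% to 96.8% of the MMP sum in injured mutants and 28.5% to 44.8% in intact libraries, and Mmp3 alone was 1692 to 15323 TPM in injured mutants. Transcript ratios do not measure enzyme or inhibitor protein.

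**Figure D4:**
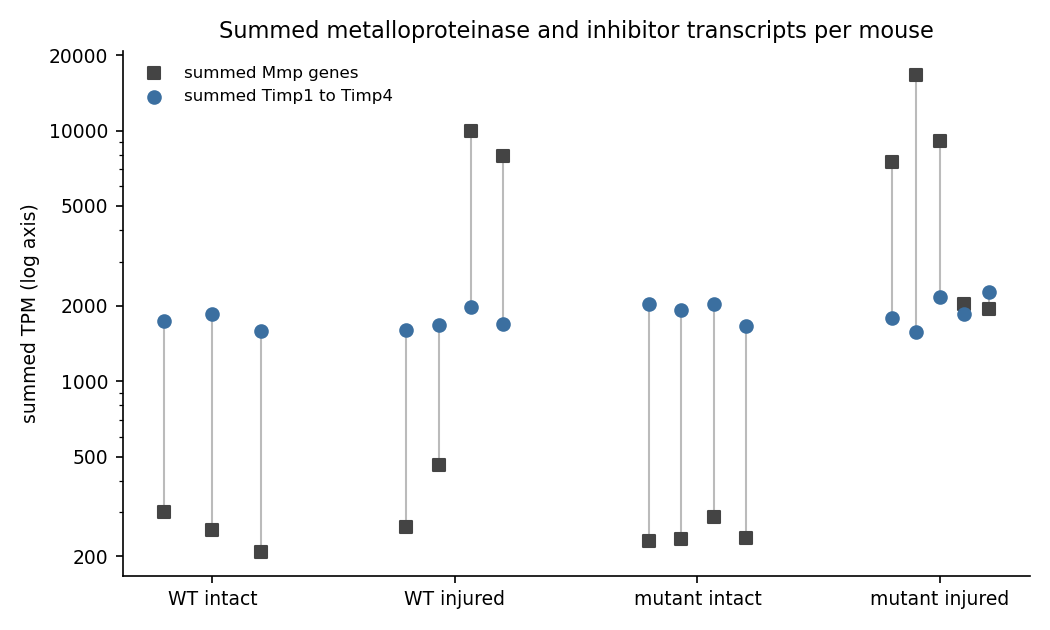
Summed TPM (log axis) of the MMP genes (squares) and of Timp1 to Timp4 (circles) in each mouse, joined by a line for the same mouse and ordered by group. The circles stay between 1567 and 2266 TPM in all 16 mice, while the squares go from 209 to 302 TPM in intact discs to as much as 16711 TPM in an injured mutant.

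Of 9 listed ADAM genes with a catalytic zinc site 7 were tested, and in mutants 6 rose and 0 fell, with a median change of 1.06, against 13.1% higher, 17.7% lower and a median of -0.08 over all genes. Adam12 rose by 4.08 ± 0.44 (SE, limma adjusted p 0.000173), Adam9 by 0.97 ± 0.17 (SE, limma adjusted p 0.0015), Adam19 by 2.92 ± 0.52 (SE, limma adjusted p 0.00162) and the mutated gene Adam8 by 4.56 ± 0.81 (SE, limma adjusted p 0.00156). Adam17 and Adam10, the main sheddases, which were named after their values were seen, rose by 1.06 and 0.50 (limma adjusted p 0.00205 and 0.0178). Among wild-type mice Adam12 was the 1 gene called, with 6 at an unadjusted p under 0.05 (17.2% of genes) and 0 called by voom. That call was lost without any 1 of the 3 intact wild-type mice, without injured wild-type mouse 4 or without injured mutant mouse 5. Without injured wild-type mouse 1, 3 ADAM genes were called, when 452 genes were called in all. Of 19 ADAMTS genes 15 were tested, of which 5 were called in mutants, near the 30.8% of all genes called. The gene that rose was the aggrecanase Adamts4 at 2.49 ± 0.60 (SE, limma adjusted p 0.00697), and 4 fell. Those were Adamts10 at -0.66, Adamts17 at -1.29, Adamts20 at -1.76 and Adamts2, a procollagen N-proteinase, at -0.77. The other main aggrecanase, Adamts5, had a difference of 0.18 ± 0.26 (SE, limma adjusted p 0.635). Wild-type injury gave 0 ADAMTS calls by limma and 0 by voom, and 1 was called without injured wild-type mouse 1. An unadjusted p under 0.05 was held there by 2 ADAMTS genes, against 17.2% of all genes.

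Signals and factors known to act on TIMP1 expression were listed as well, 26 in all, and all were tested. In mutants 14 rose and 3 fell, with a median change of 0.78, against 13.1% higher, 17.7% lower and a median of -0.08 over all genes. Il11, an IL-6 family cytokine, rose by 7.23 ± 0.71 (SE, limma adjusted p 0.000117), the AP-1 subunit Fosl2 by 0.99 ± 0.10 (SE, limma adjusted p 0.000117), the transcription factor Runx1 by 1.45 ± 0.20 (SE, limma adjusted p 0.000482) and the IL-6 receptor gene Il6ra by 0.78 ± 0.12 (SE, limma adjusted p 0.000731). Other listed genes went the other way. From intact to injured mutants the mean of the IL-11 receptor gene Il11ra1 went from 29.5 to 18.5 TPM and that of Tgfb3 from 115 to 53.4 TPM. Wild-type injury gave 0 of 26 calls by limma and 0 by voom, with 13 at an unadjusted p under 0.05, against 17.2% of genes. Without injured wild-type mouse 1, 3 of these were called, when 452 genes were called in all. Of 11 listed binding partners of TIMPs and RECK 10 were tested, and 3 rose and 1 fell in mutants, where 30.8% of all genes were called. Cd44, a hyaluronan receptor, rose by 3.26 ± 0.45 (SE, limma adjusted p 0.000482), Cd74, the invariant chain of antigen-presenting cells, by 4.19 ± 0.87 (SE, limma adjusted p 0.00334), and Wnt7b, a ligand of the RECK receptor complex, by 1.58 ± 0.35 (SE, limma adjusted p 0.00485). Wnt7b was low, with a mean of 0.126 TPM in intact and 2.85 TPM in injured mutants. Efemp1, a matrix protein that binds TIMP3, fell by 1.46 ± 0.39 (SE, limma adjusted p 0.0117). Lrp1, the endocytic receptor that clears TIMPs, had a difference of -0.04 ± 0.13 (SE, limma adjusted p 0.836). Limma called 0 of the 10 for wild-type injury, with 4 at an unadjusted p under 0.05 (17.2% of genes) and 0 called by voom. Without injured wild-type mouse 1, 2 partners were called.

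Genes with the most similar pattern were found by the root mean square difference of log2(TPM + 1), each gene centred on its own mean, over the 16 libraries. All such libraries share the injury contrast, and no test was made. Closest to Timp1 was Adam12, with a difference of 0.23 where Timp1 itself had an SD of 2.11 over the libraries, followed by Lcn2 (0.47) and Bcl3 (0.48). Adam12 was 0.550 to 1.61 TPM in intact discs, 6.18, 13.3, 49.5 and 23.1 TPM in injured wild-type mice 1 to 4 and 54.4, 33.1, 39.9, 18.0 and 29.0 TPM in injured mutants 1 to 5. Its intact values are near the 1 that is added, so log2(TPM + 1) understates its change. The closeness to Timp1 holds for that scale. Closest to Timp4 was Lepr, the leptin receptor gene, with a difference of 0.16 against an SD of 1.43, ahead of Frzb (0.37) and Serpina1a (0.38). Lepr was 92.4 to 146 TPM in intact discs, 88.7, 77.5, 21.7 and 54.7 TPM in injured wild-type mice 1 to 4 and 6.15 to 20.01 TPM in injured mutants.

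Neighbours of the other members were less close relative to their own spread. For Timp2, with an SD of 0.58, they were Rab3a, Mxra8 and Man2b2 (0.16, 0.16 and 0.17). For Timp3, with an SD of 0.71, they included Papss2 (0.25), a gene of sulfate activation, and Insig1 (0.28), a regulator of sterol synthesis. For Reck, with an SD of 0.48, they were Gstz1, Zbtb20 and Fkbp9 (0.16, 0.16 and 0.17).

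**Figure D5:**
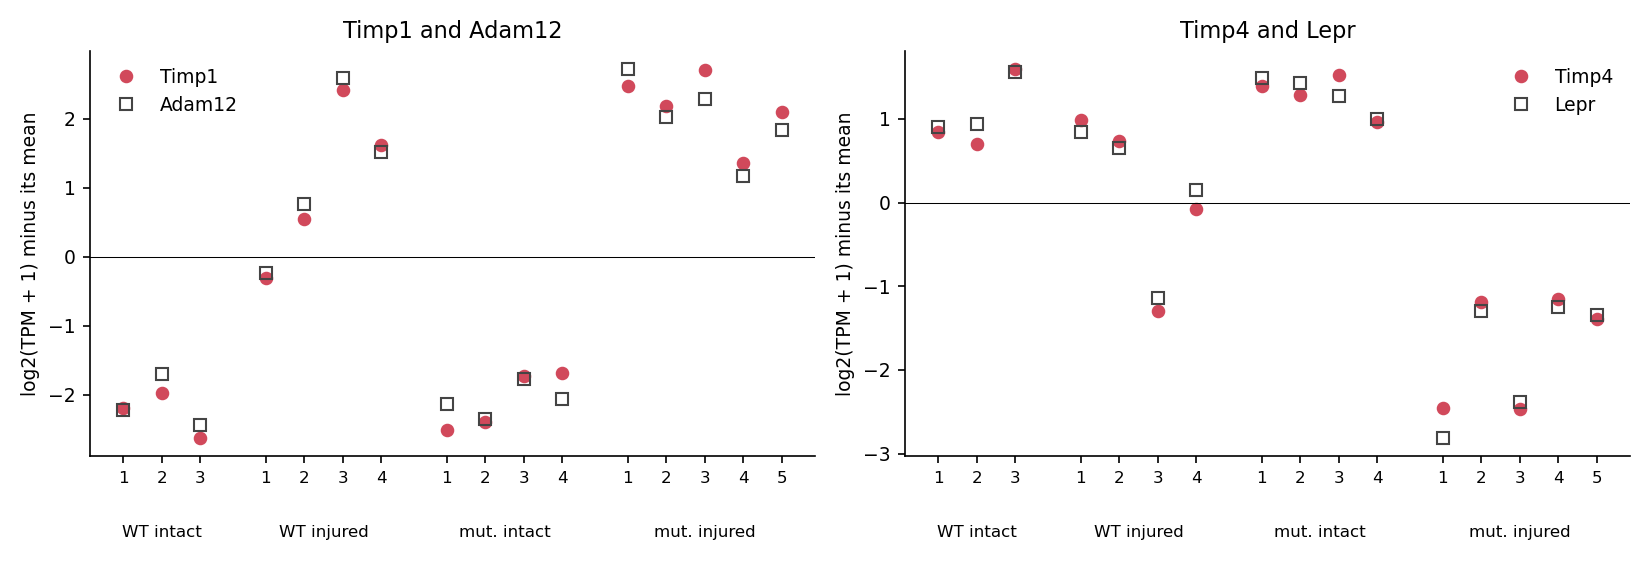
log2(TPM + 1) minus the gene's mean over the 16 mice, for Timp1 (circles) with Adam12 (squares) and for Timp4 (circles) with Lepr (squares), 1 position per mouse, numbered within its group. Circles and squares lie close in every group, including injured wild-type mouse 3, which is high for Timp1 and low for Timp4.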

How the data were processed

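The authors deposited 1 table of gene-level TPM values for the 16 libraries, which is the unit used here. Demultiplexing was with bcl2fastq 2.20 and the genome build was GRCm38, per the submitters' processing notes. The aligner, counter and strand setting are not given in the sources used here. Genes at 1 TPM or more in at least 3 libraries were kept. Values were taken as log2(TPM + 1) and fitted over all 16 libraries with limma 3.58.1 (R 4.3.3; a mean per group, trended empirical Bayes), with Benjamini-Hochberg adjustment over all tested genes. TPM keeps no depth by itself, so implied reads were found from the steps of low values and annotated exon lengths, and used for depth and as an added alternative with voom. Replicates are separate mice. The fit was tested on simulated data. The members and gene lists were chosen with earlier results of these data known. Up to 4 genes per list were named, those with the smallest adjusted p for injury in mutants, with the 3 nearest profiles per member; 2 genes that this rule names are not reported here. Adam10, Adam17, Adamts2, Adamts5, Il11ra1, Tgfb3, Lrp1, Tfpi2, Pcolce and Pzp were named after their values were seen. Alternatives were another pseudocount, filters, scalings, variance models, sample subsets and each mouse left out.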

Additional observations from a re-analysis of the deposited data

Results flagged for a closer look

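Timp3 was 482 TPM in intact mutant mouse 3, against 259 to 287 TPM in the other 3 intact mutants. That mouse lay far from the rest of its group relative to the group's range. Chance gives such a gap in about 1 in 20 groups, and 15 groups of the members were examined, with 1 found.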

How the results depend on the processing

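Of the members, the mutant injury calls of Timp1, Timp2 and Timp4 held in every alternative run, and that of Reck in all but the splits by library name. The number of members called for injury in the wild type went from 1 to 0 with only the groups compared, with the replicate block and with voom, and was 0 to 1 with a mouse left out. In injured discs between genotypes it went from 0 to 1 with a mean of at least 5 TPM, to 2 with sample weights and with voom, and was 0 to 3 with a mouse left out. Over all genes, wild-type injury gave 28 calls, and 64 with a pseudocount of 0.1, 11 with no filter, 17 with median-of-ratios scaling, 13 without trend, 77 with sample weights, 4 with only the groups compared, 4 with voom and 2 to 452 with a mouse left out. Mutant injury gave 7438, and 3583 with the A8 names, 725 with the M names and 5332 to 7985 with a mouse left out. Between genotypes in intact discs there were 4, and 8 with sample weights or the A8 names, 2 with the M names and 1 to 7 with a mouse left out. In injured discs there were 222, and 86 with no filter, 93 with quantile normalization, 1070 with sample weights, 5 with only the groups compared, 2 with the A8 names, 558 with voom and 7 to 2253 with a mouse left out. The interaction gave 0, 4 with sample weights and 0 to 15 with a mouse left out. With the M names the mutant injury calls went from 6 to 0 for MMP, 6 to 1 for ADAM and 5 to 0 for ADAMTS genes. For the signals acting on TIMP1 they went from 17 to 7, and for the other inhibitors from 7 to 3. With the A8 names they were 2 for ADAMTS genes, 4 for the other inhibitors and 1 for the binding partners.

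Replicate numbers did not pair the mice: over 21 same-numbered pairs the correlation of deviations was -0.217 to 0.151, and 1 was over 0.1. With the replicate block the calls were 5 for wild-type injury, 2 between intact and 11 between injured genotypes, and the wild-type Timp1 change was 3.32 (limma adjusted p 0.117).

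Signs turned as follows, and the cause was not tested. The intact Timp3 difference was -0.011 with quantile normalization, -0.015 with sample weights, -0.067 with the replicate block, -0.22 with the A8 names, -0.00013 with voom and -0.20 to 0.10 with a mouse left out (-0.090 without intact wild-type mouse 1, -0.0075 without mouse 3). The intact Reck difference was 0.012 with sample weights and -0.17 to 0.074 with a mouse left out, the highest without intact wild-type mouse 3. With the A8 names the intact Timp1 difference was -0.19, and Timp3 was -0.0028 for mutant injury, -0.64 between injured genotypes and -0.42 for the interaction. With 3 to 5 mice a group, and 43 to 139 implied reads for Timp4 in injured mutants, small differences were not detectable.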

Other observations

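Other inhibitors and modulators of extracellular proteases moved in both directions. Of 15 listed genes 12 were tested. With injury in mutants 2 rose and 5 fell, against 13.1% higher and 17.7% lower over all genes. Their median change was -0.40, against -0.08 over all genes. Tfpi2, a Kunitz-type serine protease inhibitor, rose by 1.58 ± 0.45 (SE, limma adjusted p 0.0167). Thbs1 and Thbs2, thrombospondins of the matrix, fell by 1.84 ± 0.27 and 1.25 ± 0.14 (SE, limma adjusted p 0.000689 and 0.000233). Wfikkn2, a secreted protein with several inhibitor domains, fell by 2.70 ± 0.50 (SE, limma adjusted p 0.00187). Pcolce, an enhancer of procollagen processing, and Pzp, a broad protease inhibitor, fell by 0.67 and 0.62 (limma adjusted p 0.0355 and 0.0444). Pzp and Tfpi2 were low. In intact and injured mutants mean Pzp was 0.845 and 0.191 TPM and mean Tfpi2 0 and 2.19 TPM, against 126 and 83.1 TPM for Pcolce. For wild-type injury limma called 0 of the 12 and voom 0, with 4 at an unadjusted p under 0.05, against 17.2% of genes. Without injured wild-type mouse 1, 1 was called, when 452 genes were called in all.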
